A study of Homo sapiens with 54 samples.

Results

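The genes described here are the distal-less homeobox factors DLX1, DLX2, DLX5 and DLX6, the glutamate decarboxylases GAD1 and GAD2, and the vesicular GABA transporter SLC32A1. These 7 genes were taken by name from the 60676 genes of each deposited table, and each name matched 1 row. They were measured by RNA-seq in 53 libraries of H9 hMSN-like cells, neurons of a striatal type (medium spiny neurons, MSNs) that the study differentiated from H9, an established human embryonic stem cell line. TPM (reads per exon base, scaled to the same total in every library) was used to compare levels, and reads on exons were used for tests.

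The libraries fall into 18 conditions of 4 experiments, with 3 libraries a condition except for 5 Day with 2. In the 1 mM and the 1 µM experiment, dopamine was given once (Acute) or daily over 5 days (Chronic), RNA was taken at 1 h or at 24 h from the final dose, and each experiment had its own libraries treated with PBS. In the time course, 1 mM dopamine was given daily for 2, 3, 4 or 5 days (2 Day to 5 Day) and extracted after 1 h, beside a chronic ascorbic acid (AA) vehicle. In the agonist experiment, cells received 50 µM SKF82958, an agonist of D1-like dopamine receptors, 50 µM quinpirole, an agonist of D2-like receptors, or water. Every library came from the one line, and the study dissolved dopamine in ascorbic acid, which the labels of the PBS libraries do not name. The study harvested Acute cultures at an earlier day of differentiation than Chronic ones, while 1 PBS set served both, so regimen and culture age cannot be told apart. The study calls its replicates independent, the labels give only their numbers, and p-values measure the spread between these libraries.

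DLX genes encode transcription factors of the ventral forebrain, where they are switched on in progenitors of the ganglionic eminences and drive the GABAergic fate of striatal neurons and of many interneurons. GAD1 and GAD2 each make GABA from glutamate, GAD1 mostly for the general cell pool and GAD2 mostly for synaptic release, and SLC32A1 loads GABA into synaptic vesicles. Mature MSNs use all of this machinery, since GABA is their transmitter.

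On GRCh38 the DLX genes sit in 2 pairs. DLX1 (ENSG00000144355, chr2:172084740-172089677, plus strand) and DLX2 (ENSG00000115844, chr2:172099438-172102900, minus strand) face each other across 9760 bases. DLX6 (ENSG00000006377, chr7:97005553-97011040, plus strand) and DLX5 (ENSG00000105880, chr7:97020396-97024950, minus strand) do so across 9355 bases. GAD1 (ENSG00000128683, chr2:170813213-170861151, plus strand) lies 1223588 bases from DLX1 on the same chromosome, GAD2 (ENSG00000136750) spans chr10:26216665-26304558 and SLC32A1 (ENSG00000101438) spans chr20:38724486-38729372, both on the plus strand. All 7 are annotated as protein coding. The lncRNA DLX6-AS1 (ENSG00000231764, chr7:96955141-97014088) covers the whole of DLX6 on the other strand and held 27957 exon reads over all libraries against 2204 for DLX6. The lncRNAs AC007405.2, AC007405.3 and AC007405.5 overlap GAD1 on the other strand with 913, 2292 and 62 reads against 24741 for GAD1. The strand setting of the counting is not given in the sources used here, so reads of these overlapping genes cannot be told apart with certainty.

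The 250 bases before the RefSeq start are shown for DLX2 and GAD2, which passed the test in the 1 mM experiment, and for DLX6, the one gene of the 6 with a RefSeq entry whose window held a whole cAMP response element, a site that factors downstream of dopamine receptors are known to use. Sequences are from RefSeq on GRCh38.p14, each on its gene's strand and 5′ to 3′, and capitals mark TGACG (with the whole TGACGTCA where present).
DLX2 (chr2:172102901-172103150, minus strand): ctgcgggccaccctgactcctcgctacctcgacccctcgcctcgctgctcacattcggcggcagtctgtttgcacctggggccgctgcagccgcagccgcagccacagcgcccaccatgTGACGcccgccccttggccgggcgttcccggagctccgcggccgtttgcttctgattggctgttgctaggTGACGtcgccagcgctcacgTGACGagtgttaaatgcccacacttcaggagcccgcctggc
DLX6 (chr7:97005303-97005552, plus strand): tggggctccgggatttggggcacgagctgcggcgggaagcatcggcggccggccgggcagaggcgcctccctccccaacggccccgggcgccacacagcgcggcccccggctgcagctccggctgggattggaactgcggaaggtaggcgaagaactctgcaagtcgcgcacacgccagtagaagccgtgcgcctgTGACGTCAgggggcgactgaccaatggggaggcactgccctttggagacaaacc
GAD2 (chr10:26216122-26216371, plus strand): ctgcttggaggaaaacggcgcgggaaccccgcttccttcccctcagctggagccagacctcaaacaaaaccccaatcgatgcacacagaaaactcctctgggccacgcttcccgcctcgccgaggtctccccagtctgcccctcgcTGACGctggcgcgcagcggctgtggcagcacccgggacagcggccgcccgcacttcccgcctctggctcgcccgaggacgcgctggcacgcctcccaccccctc

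The motifs searched, on both strands, were TGACGTCA, its shorter core TGACG, the AP-1 element TGANTCA and the homeodomain core TAATT. Of 35093 RefSeq windows of the same length, 1.65% held TGACGTCA, 21.2% TGACG, 6.57% TGANTCA and 23.1% TAATT. The DLX6 window held TGACGTCA 54 bases before the start, and its palindrome counts as TGACG on both strands. TGACG was found 3 times in the window of DLX2, once in the window of GAD2 (104 bases before the start of its first entry) and once in that of SLC32A1 (70 bases before the start). The window of the second RefSeq entry of GAD2 (chr10:26216524-26216773), not shown, held none of the motifs searched. DLX1 held TGANTCA 34 bases before its start, the window of GAD1 held none of these motifs, and TAATT was in none of the windows. These matches are letters in a window, and no binding was measured.

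Libraries held 137051 to 27702963 exon reads with a median of 11458465, and introns took 12.26% to 96.67% of gene reads with a median of 17.79%. Replicate 1 of Quinpirole stood apart, with the 137051 exon reads and the intron share of 96.67%. The library labelled 1 mM Acute 24 h replicate 1 also stood apart from its group. Its 7 immediate early genes summed to 952.7 TPM against 79.27 and 92.25 in the others, its cycling markers summed to 233 against 799.2 and 803.1, and DLX6-AS1 was at 1.31 TPM against 10.8 and 14.8. Its immediate early genes lay in the range of the 1 mM libraries taken at 1 h (768.4 to 1224 TPM). Its cycling markers lay below the 556.2 to 794.7 TPM of those libraries, and its pan-neuronal markers, at 2676, below their 4721 to 5501. Whether its label is right could not be settled, and each 1 mM Acute 24 h value depends on it. The log2(fold changes) of the 7 genes against PBS in that group, and against water with quinpirole, are given with and without these libraries. Other lists of genes and the shares of all genes passing are given below with these libraries included. The intron share was 12.26% to 13.21% at 1 mM Acute 1 h and 12.49% to 15.86% at 1 mM Acute 24 h, below the 19.53% to 21.81% of the 1 mM PBS libraries. In 1 µM PBS replicate 2, a control of every 1 µM comparison, each list of genes summed lower than in the other 1 µM PBS libraries. The 7 genes summed to 23.9 TPM there against 35.41 and 38.49, and pan-neuronal markers to 3306 against 3794 and 3832.

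In the 12 control libraries the 7 genes summed to 23.9 to 99.2 TPM with a median of 78. MSN markers were present, with BCL11B at a median of 56.1 TPM, PPP1R1B (DARPP-32) at 22.7, DRD2 at 4.26 and DRD1 at 1.61. Transcripts of cortical glutamatergic neurons were far higher, with NEUROD6 at a median of 742 TPM, NEUROD2 at 442, NEUROG2 at 232 and TBR1 at 140. Of interneuron markers, CALB2 stood at 187 TPM and SST at 23.7, while NKX2-1 and LHX8 had a median of 0. These are RNA levels of whole cultures, in which fewer cells of a type and less RNA per cell cannot be told apart.

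**Figure D1:**
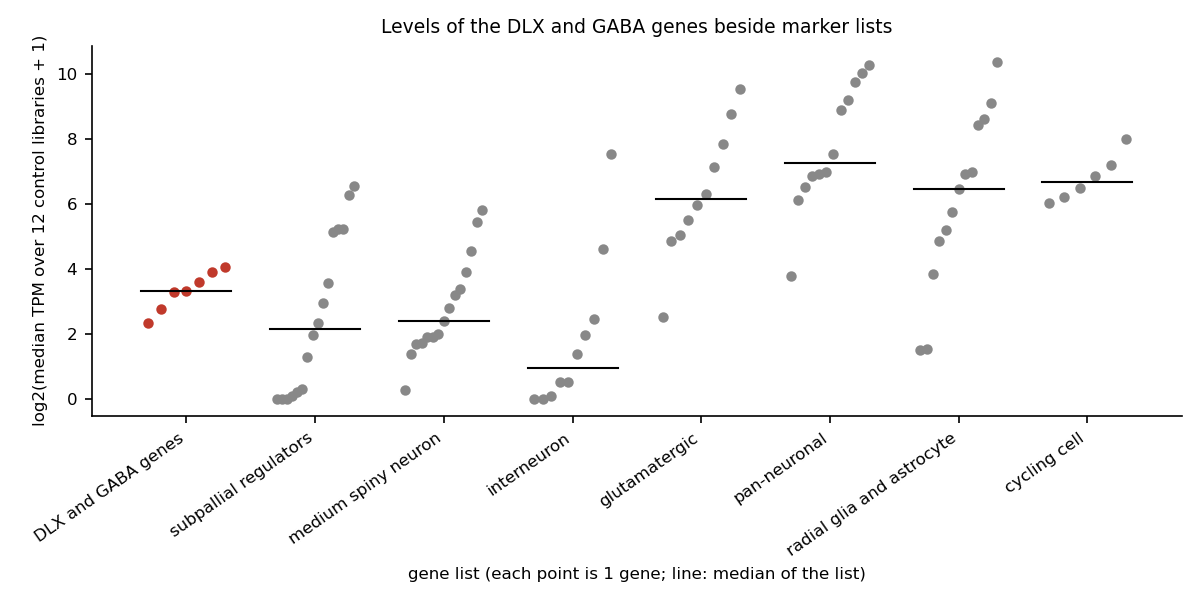
Levels of the 7 DLX and GABA genes beside marker lists, each point a gene at its median TPM over the 12 control libraries on a log2(TPM + 1) axis and each line the median of its list. The DLX and GABA genes lie below the leading glutamatergic markers, such as NEUROD6 at 742 TPM and NEUROD2 at 442 TPM.

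All 7 genes were detected in nearly every library. Over the control libraries GAD1 had the highest mean level at 17.5 TPM, rank 8238 of 31059 genes above 0, and DLX6 the lowest at 3.8 TPM, rank 13262. DLX1 and DLX2 stood at 12 and 12.4 TPM, DLX5 and SLC32A1 at 9.06 and 9.14, and GAD2 at 5.75. Of the 7 genes, GAD1 gathered the most exon reads, with a median of 400 a library and a range from 0 to 1502. DLX6 gathered the fewest, with a median of 38 and a range from 18 to 88. DLX5, GAD1 and SLC32A1 had no read in Quinpirole replicate 1, where 3 reads would be 55.4, 11.7 and 37.9 TPM. In that library DLX6 had 22 reads and hence 206 TPM, against 3.14 and 3.93 in the other quinpirole libraries. Outside it, DLX5 had no read in 1 µM PBS replicate 2, which allows up to 0.572 TPM, and SLC32A1 none in 1 µM Acute 24 h replicate 1, which allows up to 0.54 TPM. These limits stand for 3 reads and cover counting error only.

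**Figure D2:**
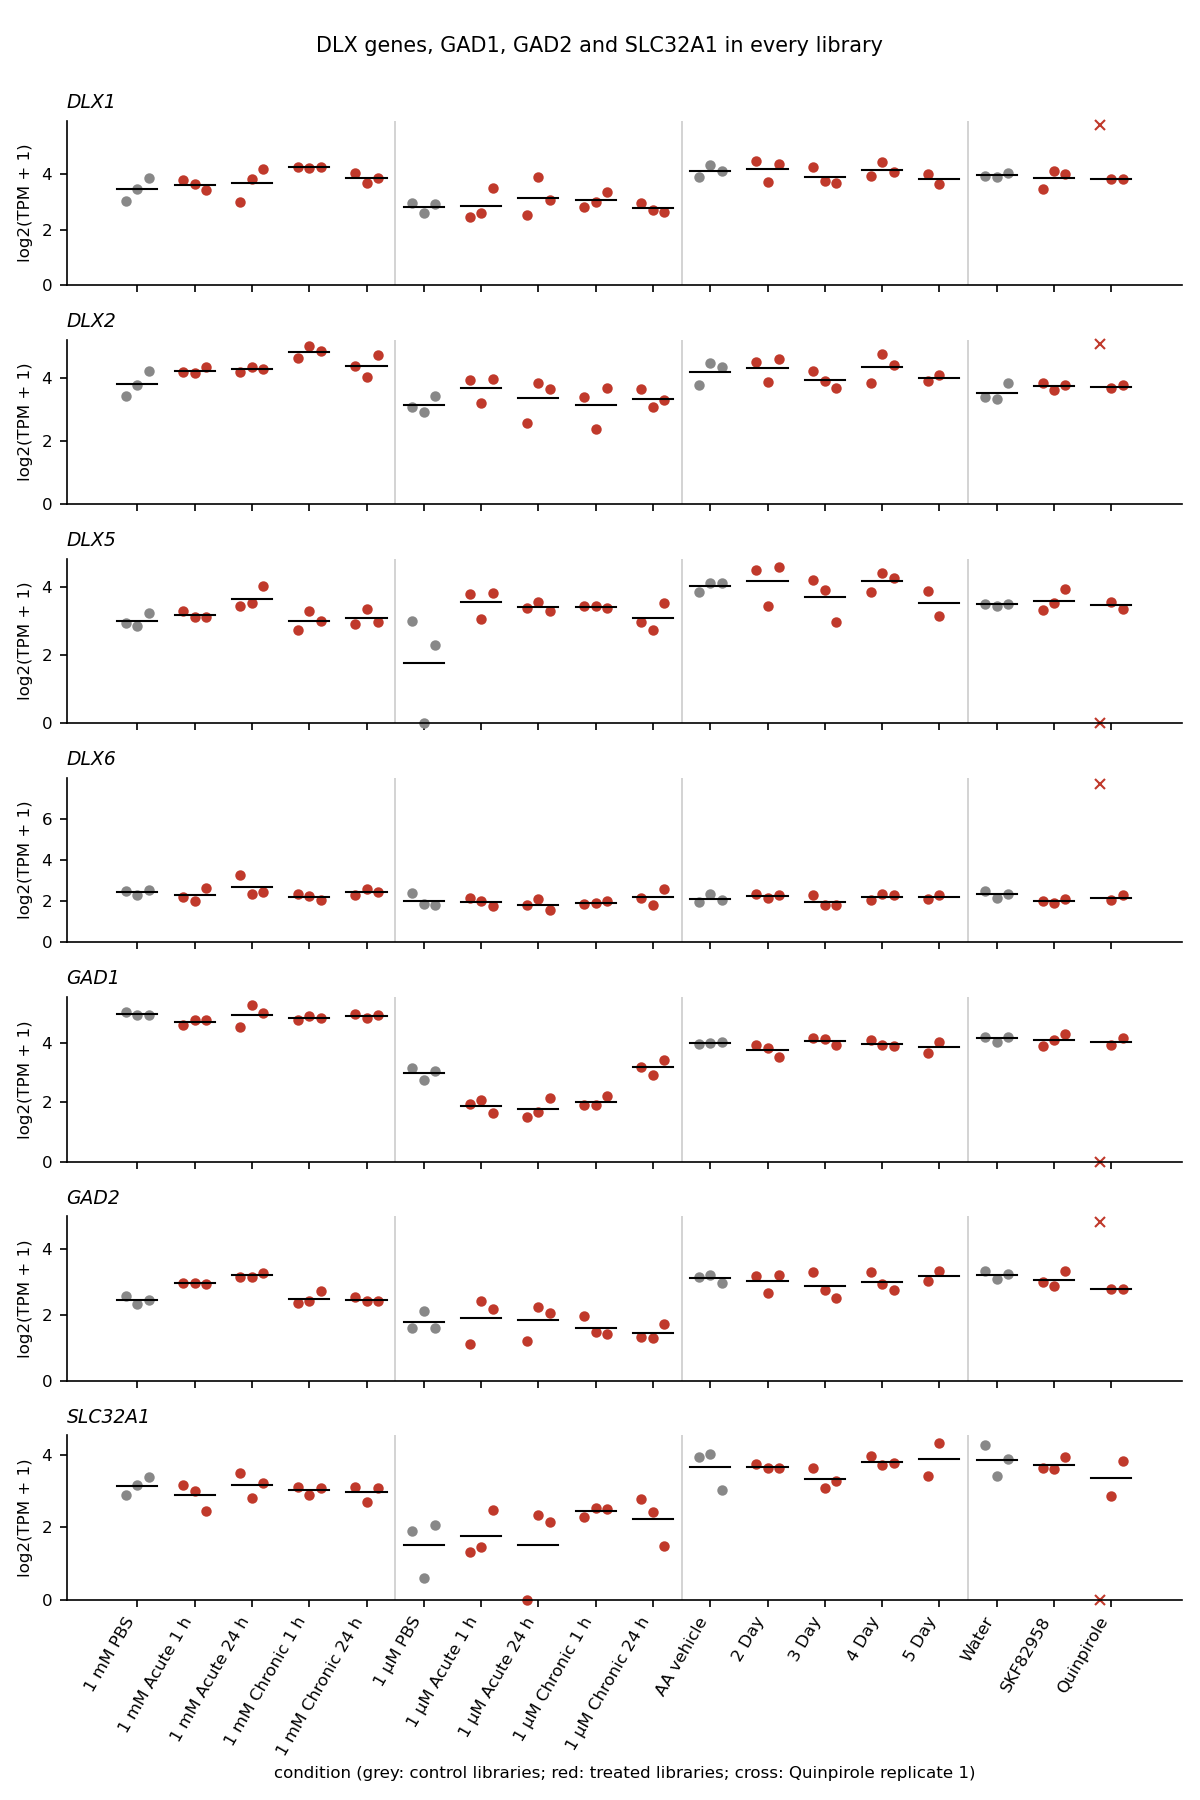
Level of each of the 7 genes in all 53 libraries, as log2(TPM + 1) by condition, with control libraries in grey, treated libraries in red Quinpirole replicate 1 as a cross and lines at the mean of the other libraries. GAD1 runs from 1.84 TPM in 1 µM Acute 24 h replicate 1 to 38.5 TPM in 1 mM Acute 24 h replicate 2, apart from the 0 of Quinpirole replicate 1.

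The level of the genes differed between the control sets, which received no dopamine or agonist. In an F test across the 4 control sets (edgeR's quasi-likelihood test with Benjamini-Hochberg adjustment), 6 of 7 genes passed at an adjusted p-value under 0.05, where 62.6% of 16944 genes did. GAD1 had adjusted p = 1.5e-07 and every set apart from its neighbours: 1 mM PBS held 32.3, 30.2 and 30.4 TPM, water 17.6, 15.7 and 17.7, AA 14.9, 15.1 and 15.5, and 1 µM PBS 8.08, 5.73 and 7.28. The highest mean was thus 4.41 times the lowest. SLC32A1 was the most unequal, with means from 14.1 ± 4.48 TPM (SD, n = 3) in water to 2.15 ± 1.42 in 1 µM PBS, 6.54 times apart, and adjusted p = 0.00073. GAD2 ran from 8.32 ± 0.815 TPM in water to 2.49 ± 0.782 in 1 µM PBS (adjusted p = 0.00035), and its water and AA libraries overlapped.

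Among the DLX genes, DLX1 ran from 16.5 ± 2.46 TPM in AA to 6.19 ± 1.01 in 1 µM PBS (adjusted p = 0.00036). DLX5 ran from 15.3 ± 1.63 to 3.65 ± 3.53 TPM in the same sets (adjusted p = 0.023) and DLX2 from 17.7 ± 4.37 to 7.92 ± 1.64 TPM (adjusted p = 0.016), with neighbouring sets of DLX2 overlapping throughout. The calls of DLX2 and DLX5 were lost without AA replicate 2 (adjusted p = 0.082 and 0.067) or replicate 3 (0.072 and 0.070), and that of DLX5 without 1 mM PBS replicate 2 (adjusted p = 0.0501). DLX6 had means between 3.17 and 4.54 TPM and adjusted p = 0.59. For all 7 genes the 1 µM PBS set had the lowest mean. Pan-neuronal markers summed to 3306 to 3832 TPM in that set against 4721 to 6033 in the other sets, and MSN markers to 87.26 to 120.9 against 158.9 to 241.4. Cycling markers were higher there, at 1120 to 1414 against 226.7 to 818.5, and glutamatergic markers overlapped (1484 to 1839 against 1555 to 2250). The part of these differences in the levels of the 7 genes was not tested. Experiment, vehicle, culture age and sequencing cannot be told apart here.

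**Figure D3:**
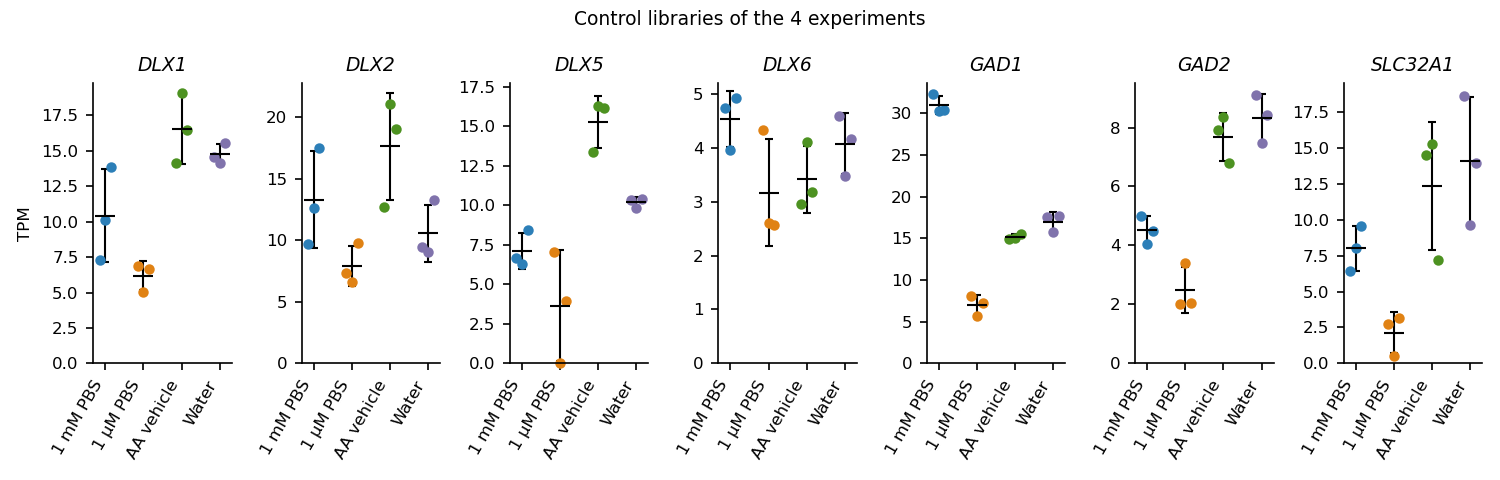
TPM of each gene in the 12 control libraries by control set, each point a library, each horizontal line the mean of 3 and each error bar 1 SD. For all 7 genes the 1 µM PBS set has the lowest mean, from 2.15 TPM for SLC32A1 to 7.92 TPM for DLX2.

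The first question was whether 1 mM dopamine changed these genes. At 1 h after a single dose 1 of 7 genes passed the test, where 16% of 17804 genes did, at 24 h 1 of 7 against 15.5%, at Chronic 1 h 1 of 7 against 2.08%, and at Chronic 24 h 0 of 7 against 0.663%. In the last comparison 118 genes were called by edgeR and 428 by DESeq2, with 1921 at an unadjusted p under 0.05, among them DLX2. The median log2(fold change) of the 7 genes was 0.19, 0.19, -0.04 and -0.03 in that order, beside 0.01, 0.02, 0.00 and 0.01 over all genes.

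GAD2, the decarboxylase linked to synaptic GABA, rose after a single 1 mM dose. Its PBS libraries held 5.01, 4.04 and 4.49 TPM. Its Acute 1 h libraries held 6.93, 6.82 and 6.75 TPM and its Acute 24 h libraries 7.97, 7.89 and 8.80 TPM, so that all 6 lay above every PBS library. The log2(fold change) was 0.66 ± 0.15 (SE) with adjusted p = 0.011 at 1 h and 0.75 ± 0.15 with adjusted p = 0.0093 at 24 h (edgeR). Without the library labelled 1 mM Acute 24 h replicate 1 the 24 h value was 0.84 with adjusted p = 0.0014. Without 1 mM PBS replicate 2 both calls were lost (adjusted p = 0.065 and 0.057), as they were with reads across exon junctions (adjusted p = 0.16 and 0.098). The 24 h call was also lost in the fit of only the groups compared (0.74, adjusted p = 0.14). After daily dosing GAD2 did not stand apart from PBS, with 4.17, 4.32 and 5.61 TPM at Chronic 1 h and 4.85, 4.35 and 4.35 at Chronic 24 h.

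The reads of GAD2 that rose were exon reads. Scaled to reads per 1000000 gene reads, its exon reads went from 4.98 in PBS to 8.48 at Acute 1 h and 9.33 at Acute 24 h, while its intron reads went from 4.96 to 2.79 and 3.46. When intron reads were tested alone, scaled to each library's own intron total, GAD2 had log2(fold changes) of 0.16 and 0.25 (adjusted p = 0.57 and 0.36). Over the same comparisons the summed glutamatergic markers stood at 1042 to 1240 TPM at Acute 1 h and 1070 to 1539 at Acute 24 h, against 2088 to 2250 in PBS. At either time 3 of 10 of these markers fell, NEUROD6 by 1.37 and 1.30 and SLC17A7 by 1.5 and 1.56 on the log2 scale. Of the 12 pan-neuronal markers 3 and 4 fell. The summed interneuron markers stood at 117.3 to 143.3 TPM at Acute 1 h and 113.7 to 137.1 at Acute 24 h against 214.7 to 228.3 in PBS, and the summed MSN markers at 213.4 to 221.5 and 202.1 to 308.2 against 158.9 to 183.3. The 308.2 was that of the library labelled 1 mM Acute 24 h replicate 1, against 202.1 and 208 in the others. So was the 1539 of the glutamatergic markers, against 1070 and 1307. Pan-neuronal markers summed to 2676 TPM in that library against 4559 and 4940. The MSN markers did not move one way. Of 15 tested, 3 rose and 1 fell at Acute 1 h and 2 rose and 1 fell at Acute 24 h, and ZNF503 alone went from a mean of 40.2 TPM to 101.8 and 97.9. ARPP21 fell from 14.1 to 8.65 TPM at Acute 1 h and PPP1R1B from 22.2 to 12.7 TPM at Acute 24 h. The part of these shifts, and of the lower intron share, in the GAD2 result was not tested.

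DLX2 rose at Chronic 1 h of the 1 mM experiment, but with daily 1 mM doses in the time course it passed on no day. Its log2(fold changes) against AA were 0.25, -0.20, 0.20 and -0.11 from 2 Day to 5 Day. The PBS libraries held 9.75, 12.7 and 17.5 TPM and the Chronic 1 h libraries 23.7, 30.7 and 27.4 TPM, with no overlap. The log2(fold change) was 0.99 ± 0.22 with adjusted p = 0.034 (edgeR). It was called in 6 of 15 fits that each left out 1 library. It was lost without 1 mM PBS replicate 1 or 2, any Chronic 1 h or Acute 1 h library, or Chronic 24 h replicate 1, with values of 0.80 to 1.07 and adjusted p from 0.054 to 0.16. With total gene reads in place of exon reads the value was 0.99 with adjusted p = 0.060, and with junction reads 1.03 with adjusted p = 0.070. Markers of other cells differed in the same comparison. GFAP, an intermediate filament of astrocytes and some radial glia, rose by 1.61 on the log2 scale, while TBR1 fell by 0.63 and PPP1R1B by 0.93. Cycling markers summed to 556.2 to 592.2 TPM against 784.5 to 818.5 in PBS, and oligodendrocyte lineage markers to 132.8 to 141.4 against 86.68 to 99.63, with none of 6 passing in either list. Their part in the DLX2 result was not tested.

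The partner of DLX2, DLX1, showed a like shift in level, from 7.30, 10.1 and 13.8 TPM in PBS to 18.4, 17.7 and 18.4 TPM, again with no overlap, but did not pass the test (0.75 ± 0.30, adjusted p = 0.22). Without the library labelled 1 mM Acute 24 h replicate 1, which is in neither group, DLX1 passed at the same fold change (0.75, adjusted p = 0.0092).

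At Chronic 24 h DLX2 stood at 19.6, 15.3 and 25.1 TPM, above PBS in its mean but overlapping it (0.55 ± 0.22, adjusted p = 0.35). After a single dose DLX2 held 17.0, 16.8 and 19.3 TPM at 1 h (0.47 ± 0.22, adjusted p = 0.16) and 17.0, 19.4 and 18.3 TPM at 24 h (0.34 ± 0.22, adjusted p = 0.28). With total gene reads these became 0.77 and 0.62 with adjusted p = 0.015 and 0.043, under a setting that called 47.2% and 43.8% of all genes. Without the library labelled 1 mM Acute 24 h replicate 1 the 24 h value was 0.45 (adjusted p = 0.13). DLX5 held 6.65, 6.27 and 8.44 TPM in PBS and 9.80, 10.4 and 15.1 TPM at Acute 24 h, with no overlap and a log2(fold change) of 0.63 ± 0.25 (adjusted p = 0.091). It passed with total gene reads (0.68, adjusted p = 0.029, where 43.8% of genes passed) and without the library labelled 1 mM Acute 24 h replicate 1 (0.79, adjusted p = 0.025). DLX6 differed from PBS by -0.34 to 0.18 in the 4 comparisons, and none passed. The 0.18 was at Acute 24 h, and without the library labelled 1 mM Acute 24 h replicate 1, where DLX6 held 8.56 TPM against 4.17 and 4.50, it was -0.12 (adjusted p = 0.74). DLX1 at Acute 24 h went from 0.19 to 0.51 without that library (adjusted p = 0.67 and 0.074).

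GAD1 was the gene with the most reads, and at 1 mM it did not pass. Its PBS libraries held 32.3, 30.2 and 30.4 TPM, its Acute 1 h libraries 23.7, 26.4 and 26.7, and its Acute 24 h libraries 22.7, 38.5 and 31.5. Its Chronic libraries held 26.7, 29.7 and 28.1 TPM at 1 h and 30.6, 27.7 and 30.5 TPM at 24 h. The Acute 1 h and Chronic 1 h libraries lay below all PBS libraries in TPM, with log2(fold changes) of -0.21 ± 0.17 (adjusted p = 0.44) and -0.18 ± 0.17 (adjusted p = 0.68). The first passed without the library labelled 1 mM Acute 24 h replicate 1 (-0.23, adjusted p = 0.038). Without that library the Acute 24 h value turned from -0.10 to 0.13 (adjusted p = 0.71 and 0.32). In fits of only the groups compared both passed (-0.23, adjusted p = 0.014, and -0.18, adjusted p = 0.042). With intron reads alone, scaled to each library's own intron total, the Acute values turned round, to 0.83 at 1 h and 0.98 at 24 h (adjusted p = 0.021 and 0.012). That total was itself a lower share of gene reads in the Acute libraries than in PBS. On the scale of gene reads used above for GAD2, mean GAD1 intron reads were 28.78 in PBS and 25.45 at Acute 1 h, which is no rise. At Acute 24 h the mean was 32.53, with libraries from 15.49 to 45.03. The antisense AC007405.3 stood at 6.52 to 8.57 TPM in PBS, 11.6 to 12.4 at Acute 1 h and 1.91 to 12 at Acute 24 h, and its part in the intron reads was not tested. SLC32A1 held 6.40, 8.00 and 9.58 TPM in PBS and between 4.53 and 10.4 TPM in the 4 treated groups, with log2(fold changes) from -0.24 to -0.09 that did not pass, and -0.20 in place of -0.09 at Acute 24 h without that library.

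The same question was asked at 1 µM. At Acute 1 h 1 of 7 genes passed, where 5.77% of 16541 genes did, at Acute 24 h 1 of 7 against 3.31%, and at Chronic 1 h 1 of 7 against 2.58%. At Chronic 24 h 0 of 7 passed against 0%, since edgeR called no gene there, with 608 at an unadjusted p under 0.05, and DESeq2 called 1. The gene was GAD1 each time. The median log2(fold change) of the 7 genes was 0.29, 0.24, 0.10 and 0.18 in that order, beside 0.02, 0.01, 0.00 and 0.02 over all genes.

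GAD1 fell at 1 µM after a single dose, and 1 h after the last of repeated doses. Its PBS libraries held 8.08, 5.73 and 7.28 TPM, from 179, 142 and 149 exon reads. Acute 1 h libraries held 2.86, 3.27 and 2.09 TPM, from 37, 67 and 38 reads. Acute 24 h libraries held 1.84, 2.17 and 3.41 TPM, and Chronic 1 h libraries 2.75, 2.75 and 3.62 TPM. None of these 9 libraries reached the lowest PBS library. GAD1 fell by 1.29 ± 0.27 at Acute 1 h (adjusted p = 0.013), by 1.56 ± 0.27 at Acute 24 h (adjusted p = 0.0072) and by 1.16 ± 0.27 at Chronic 1 h (adjusted p = 0.036) on the log2 scale (edgeR). At Chronic 24 h it stood at 8.20, 6.66 and 9.73 TPM, with a log2(fold change) of 0.19 ± 0.26 from PBS (adjusted p = 0.87).

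The Acute 1 h call held in all 15 fits that left out 1 library, and the Acute 24 h call was lost without 1 µM Acute 24 h replicate 2 (adjusted p = 0.052). The Chronic 1 h call held in 6 of 15. It was lost without any PBS or Chronic 1 h library, Acute 24 h replicate 2, or Chronic 24 h replicate 1 or 2, with values of -1.20 to -1.04 and adjusted p from 0.052 to 0.17, and with no filter on low counts (adjusted p = 0.057). In fits of only the groups compared the Acute 1 h and Chronic 1 h calls were lost (adjusted p = 0.19 and 0.096). Both were also lost with reads across exon junctions (-1.34 and -1.30, adjusted p = 0.060 and 0.17). On the same scale of reads per 1000000 gene reads, GAD1 exon reads were 11.9 in PBS, 4.72 at Acute 1 h, 4.34 at Acute 24 h, 5.74 at Chronic 1 h and 14.4 at Chronic 24 h, while its intron reads were 12, 8.27, 6.66, 6.25 and 8.37. With intron reads alone the values were -0.82, -0.75 and -0.62 and did not pass (adjusted p = 0.072, 0.21 and 0.21). The antisense AC007405.3 had medians of 2.57 TPM in PBS, 0.819 at Acute 1 h, 1.31 at Acute 24 h, 1.92 at Chronic 1 h and 2.93 at Chronic 24 h.

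One interneuron marker fell in the same Acute comparisons as GAD1. Of 10 such markers 4 were tested, and only CALB2, a calcium-binding protein of some interneurons and of some cortical cells, passed, which fell by 1.06 at Acute 1 h and by 0.95 at Acute 24 h on the log2 scale. CALB2 held 116.2 to 168.4 TPM in PBS, most of the sum of this list. The markers summed to 120.9 to 183.8 TPM in PBS, 58.1 to 100.2 at Acute 1 h, 65.34 to 112.2 at Acute 24 h, 123.2 to 167.5 at Chronic 1 h and 168 to 207.9 at Chronic 24 h. At Chronic 1 h, where GAD1 was low, they overlapped PBS and 0 of 4 passed. The defining marker NKX2-1 had no read in the PBS, Acute 24 h and Chronic libraries, LHX6 none in 2 of 3 PBS libraries, and SST stood at 2.74 to 3.32 TPM in PBS and 0 to 5.77 TPM at Acute 24 h. Of the 15 MSN markers 14 were tested, and 0, 1, 0 and 0 passed in the 4 comparisons. In the 1 mM experiment CALB2 passed as well, with falls of 0.59 at Acute 1 h and 0.91 at Acute 24 h on the log2 scale. GAD1 did not pass in those 1 mM comparisons (-0.21 and -0.10).

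Markers of other cells also changed at 1 µM. At Acute 1 h the neuronal genes NEFL, SLC17A7 and TBR1 fell by 0.89, 0.77 and 0.55 on the log2 scale, and 1 of 12 pan-neuronal and 2 of 10 glutamatergic markers fell in all. The pan-neuronal markers summed to 2914 to 3203 TPM there against 3306 to 3832 in PBS, with no overlap. Of 13 radial glia and astrocyte markers HES1 and NES rose by 1.57 and 0.66 and VIM fell by 1.01, and 2 of 6 cycling markers fell. At Acute 24 h NEFL and VIM fell by 0.62 and 0.86 and NES rose by 0.62, and at Chronic 1 h TBR1 fell by 0.92 and NEUROG2 rose by 0.52. The part of other cell types in the GAD1 result was not tested.

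The other genes did not pass at 1 µM. DLX5 held 7.04, 0 and 3.93 TPM in PBS, 12.8, 7.38 and 13.0 at Acute 1 h, 9.47, 10.8 and 8.84 at Acute 24 h and 9.92, 9.74 and 9.48 at Chronic 1 h. All 9 of these lay above the PBS libraries, with log2(fold changes) of 1.72 ± 0.68 (adjusted p = 0.16), 1.5 ± 0.67 (adjusted p = 0.27) and 1.60 ± 0.67 (adjusted p = 0.28), and DESeq2 called the first (adjusted p = 0.043). These values rest on few reads, from 0 to 33 a library in PBS. SLC32A1 at Chronic 1 h, with 3.92, 4.78 and 4.75 TPM, also lay above the 2.77, 0.522 and 3.16 TPM of PBS (1.21 ± 0.83, adjusted p = 0.57). GAD2 held 2.02, 3.39 and 2.05 TPM in PBS and 1.19, 4.37 and 3.55 at Acute 1 h, a spread of its libraries wider than the difference of 0.29 ± 0.52 (adjusted p = 0.82). With intron reads this difference passed (1.78, adjusted p = 0.031). DLX1, DLX2 and DLX6 differed from PBS by -0.30 to 0.61, and the antisense DLX6-AS1 by -0.62 to 0.14 (adjusted p from 0.19 upward).

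**Figure D4:**
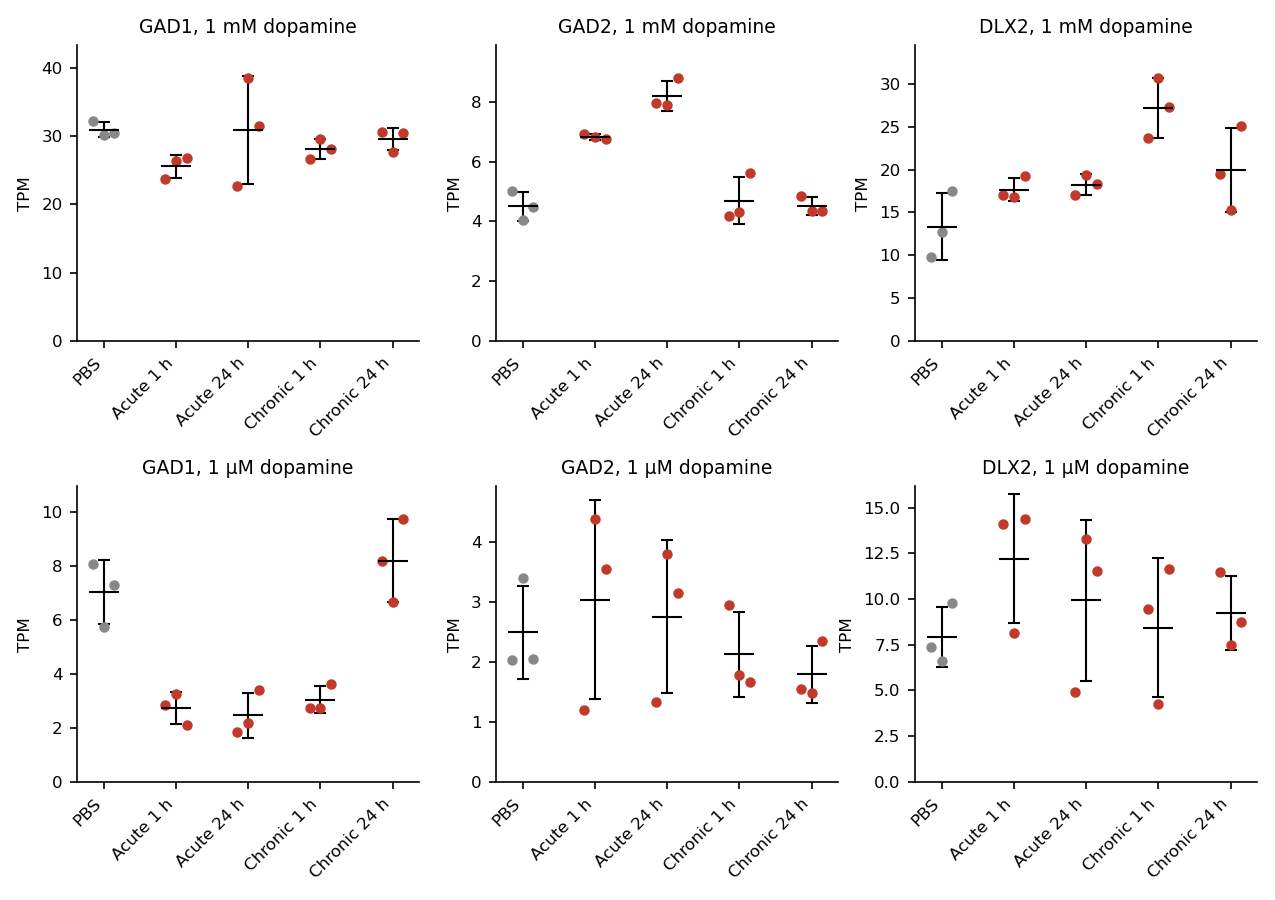
TPM of GAD1, GAD2 and DLX2 in the 1 mM and the 1 µM experiment, each point a library (grey for PBS, red for dopamine), each horizontal line the mean of 3 and each error bar 1 SD. GAD1 is below PBS in 9 of 9 libraries of 1 µM Acute 1 h, Acute 24 h and Chronic 1 h, and GAD2 is above PBS in all 6 libraries of 1 mM Acute 1 h and Acute 24 h.

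Whether the doses differed was tested with the change at 1 mM minus the change at 1 µM in 1 fit of 30 libraries. At Acute 24 h 1 of 7 genes passed, where 0.663% of 18390 genes did. This was GAD1, whose change differed by 1.46 ± 0.31 on the log2 scale (adjusted p = 0.023), and by 1.69 without the library labelled 1 mM Acute 24 h replicate 1 (adjusted p = 0.0023). It was called in 25 of 30 fits that left out 1 library, and lost without any 1 mM PBS library or 1 µM Acute 24 h replicate 1 or 2 (1.35 to 1.49, adjusted p from 0.056 to 0.11). At Acute 1 h 0 of 7 passed against 2.01%, with GAD1 at 1.12 ± 0.31 (adjusted p = 0.058), and at Chronic 1 h 0 of 7 against 0.087%, with GAD1 at 0.96 ± 0.31 (adjusted p = 0.32). GAD1 at Acute 1 h was called by DESeq2 (adjusted p = 0.025), and by edgeR without 1 mM Acute 24 h replicate 1 or 2 or 1 µM Acute 1 h replicate 2 (adjusted p = 0.012, 0.043 and 0.018). The difference for GAD2 was 0.38 ± 0.52 and 0.73 ± 0.52 in the Acute comparisons (the second 0.82 without the library labelled 1 mM Acute 24 h replicate 1), so its rise at 1 mM was not shown to differ from its change at 1 µM. The doses were given in separate experiments with their own PBS sets, between which GAD1 differed by 4.41 times, and dose and experiment cannot be told apart.

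Regimens were compared directly within a dose. At 1 mM, Chronic 1 h against Acute 1 h called 1 of 7 genes, where 11.3% of genes passed. GAD2 was lower after repeated dosing by 0.65 ± 0.15 (log2 difference -0.65, adjusted p = 0.015), a call that held in 11 of 15 fits that left out 1 library. It was lost without Acute 1 h replicate 2 or 3 or Chronic 1 h replicate 1 or 2 (-0.65 to -0.57, adjusted p up to 0.076), and with junction reads (-0.33, adjusted p = 0.40) or intron reads (-0.42, adjusted p = 0.16). DLX1 and DLX2 differed by 0.56 ± 0.30 and 0.52 ± 0.21 (adjusted p = 0.25 and 0.14), and both passed without the library labelled 1 mM Acute 24 h replicate 1 (adjusted p = 0.022 and 0.037). At 1 µM the same comparison called 0 of 7 genes, where edgeR called 1.2% (199 genes, 2198 at an unadjusted p under 0.05) and DESeq2 714 genes, and GAD1 differed by 0.14 ± 0.28.

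The hours after the last dose were compared in the same fits. This set of comparisons was added after the data had been seen. At 1 µM, GAD1 was higher at Chronic 24 h than at Chronic 1 h by 1.35 ± 0.27 (adjusted p = 0.018) and than at Acute 24 h by 1.76 ± 0.27 (adjusted p = 0.0027), the one gene of 7 to pass, where 1.95% and 4.48% of genes did. The first held in 10 of 15 fits that left out 1 library and was lost without any Chronic 1 h library or Chronic 24 h replicate 1 or 3 (1.15 to 1.39, adjusted p up to 0.096), and the second held in 15 of 15. With intron reads both were lost (0.40 and 0.53, adjusted p = 0.45 for each), and with junction reads the first was lost (1.43, adjusted p = 0.11). At 1 mM, Chronic 24 h against Chronic 1 h called 0 of 7 genes, where 0.359% of genes passed (64 by edgeR, 236 by DESeq2, 1343 at an unadjusted p under 0.05). Against Acute 24 h it called 1 of 7, where 7.75% passed: GAD2 was lower at Chronic 24 h (-0.78 ± 0.15, adjusted p = 0.0082), and lower still without the library labelled 1 mM Acute 24 h replicate 1 (-0.86, adjusted p = 0.00093). It was lost in the fit of only the groups compared (-0.76, adjusted p = 0.29) and with intron reads (-0.34, adjusted p = 0.22). DLX5 passed there only without that library (-0.73, adjusted p = 0.045) or with total gene reads (-0.68, adjusted p = 0.032, where 40% of genes passed). The comparisons of a dose share libraries, so they are not independent of each other.

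In the time course none of the 7 genes passed on any day. Against AA, 0 of 7 passed at 2 Day, where 3.88% of 16768 genes did, 0 of 7 at 3 Day against 7.37%, 0 of 7 at 4 Day against 4.38% and 0 of 7 at 5 Day against 1.63%. edgeR found 3396, 3729, 3358 and 2609 genes at an unadjusted p under 0.05 on these days, and DESeq2 called 896, 1437, 1000 and 418. The median log2(fold change) of the 7 genes was 0.22, -0.14, 0.12 and -0.02. The immediate early genes, which dopamine is known to induce, passed in 7, 7, 7 and 6 of 7 in the same comparisons.

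GAD1 held 14.9, 15.1 and 15.5 TPM in AA. It held 14.5, 13.4 and 10.6 TPM at 2 Day, all below AA, with a log2(fold change) of -0.11 ± 0.11 (adjusted p = 0.59), 17.0, 16.8 and 14.5 at 3 Day, 16.2, 14.5 and 14.1 at 4 Day, and 11.9 and 15.7 at 5 Day. DLX2 held 12.8, 21.1 and 19.1 TPM in AA and 21.4, 13.5 and 23.3 at 2 Day, 17.6, 13.9 and 11.6 at 3 Day, 13.2, 26.1 and 20.1 at 4 Day, and 14 and 16.0 at 5 Day. In each group the libraries of DLX2 overlapped AA. GAD2 held 7.92, 8.35 and 6.78 TPM in AA and between 4.78 and 9.09 TPM in the dosed libraries. The conditions 5 Day and 1 mM Chronic 1 h are the same regimen in separate experiments, and DLX2 stood at -0.11 ± 0.29 against AA in the first and at 0.99 ± 0.22 against PBS in the second. That difference was not tested.

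With the agonists, 0 of 7 genes passed for SKF82958, where edgeR called 0.0124% of 16132 genes (2 genes, 185 at an unadjusted p under 0.05) and DESeq2 6. For quinpirole 0 of 7 passed against 0% (350 genes at an unadjusted p under 0.05, and 110 called by DESeq2). The agonist libraries were fitted together, so Quinpirole replicate 1 also entered the SKF82958 tests and their SEs. DLX6 held 4.59, 3.47 and 4.15 TPM in water and 3.05, 2.75 and 3.36 with SKF82958, all below water (-0.50 ± 1.03, adjusted p = 1.00). GAD2 held 9.09, 7.47 and 8.41 TPM in water and 7.02, 6.37 and 9.03 with SKF82958 (-0.24 ± 0.19, adjusted p = 1.00), and passed with junction reads alone (-0.84, adjusted p = 0.0044). GAD1 held 17.6, 15.7 and 17.7 TPM in water, 14, 16.5 and 19.1 with SKF82958, and 14.3 and 17.1 in the quinpirole libraries other than replicate 1. The quinpirole value of DLX6 was 2.37 ± 1.20 with all libraries and -0.17 without replicate 1, and that of SLC32A1 was -0.60 ± 0.41 and -0.50. In the same order the values were -0.06 and -0.11 for DLX1, 0.27 and 0.25 for DLX2, -0.09 and 0.03 for DLX5, -0.14 and -0.07 for GAD1 and -0.39 and -0.46 for GAD2, and none of the 7 passed either way. The water libraries themselves held immediate early genes at 1097 to 1354 TPM in sum, against 85.39 to 95.37 in AA and 83.98 to 96.21 in 1 mM PBS.

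**Figure D5:**
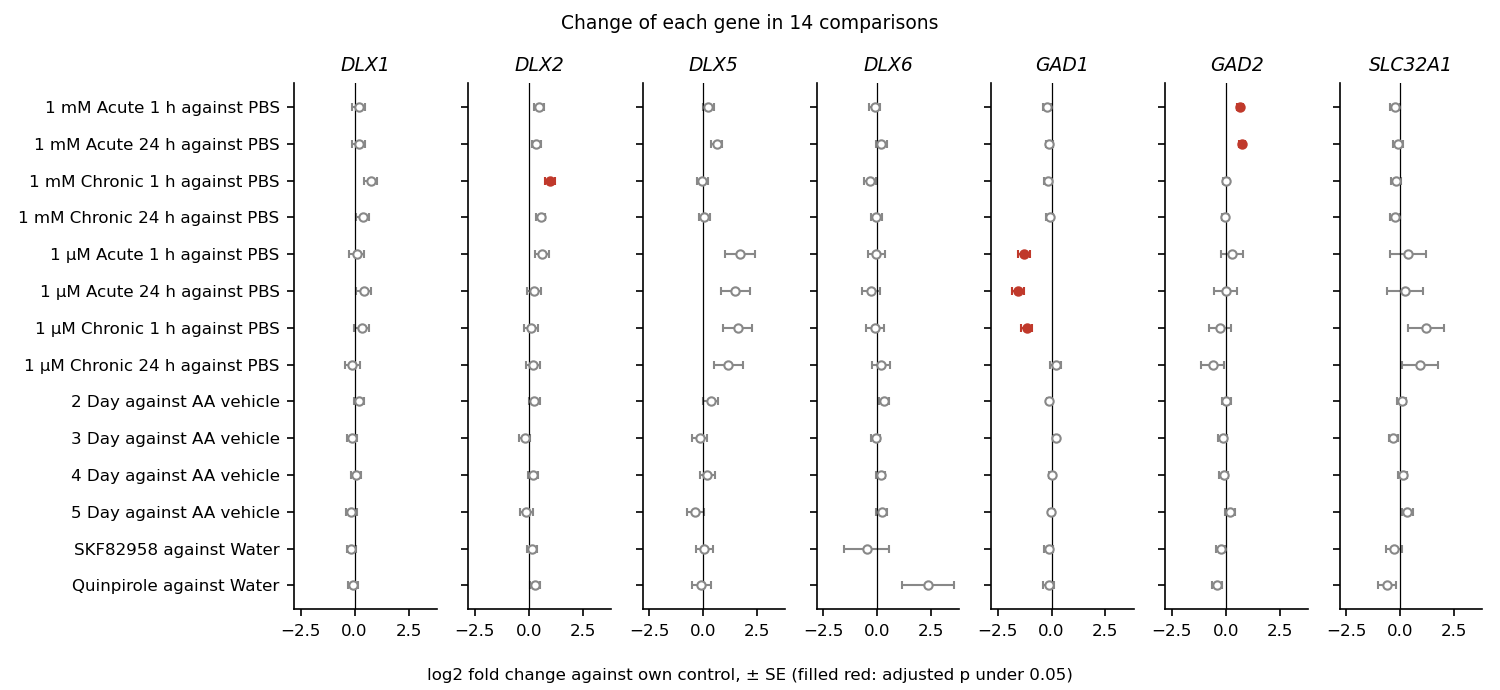
Log2(fold change) of each of the 7 genes against its own control in 14 comparisons, with bars of 1 SE and filled red points where the adjusted p-value was under 0.05. The filled points are GAD2 at 1 mM Acute 1 h and Acute 24 h, DLX2 at 1 mM Chronic 1 h, and GAD1 at 1 µM Acute 1 h, Acute 24 h and Chronic 1 h.

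Other regulators of the ventral forebrain were counted beside the DLX genes, from a list of 16. At 1 mM Acute 1 h 4 of 11 tested rose, where 16% of all genes passed in either direction, and at Acute 24 h 1 rose, where 15.5% passed. The list also held a fall at each of these times, so it did not move one way. At Chronic 1 h and Chronic 24 h 0 of 11 passed against 2.08% and 0.663%. DLX3, another distal-less factor, rose by 2.86 and SP9, a zinc finger factor of striatal neurons, by 1.00 at Acute 1 h, and SP9 by 0.93 at Acute 24 h. At 1 µM Acute 1 h 1 of 10 tested rose, where 5.77% of genes passed. This was OLIG2, by 4.13, from a mean of only 0.199 TPM in PBS to 3.50 TPM. At Acute 24 h 1 of 10 rose (MEIS2, by 0.61) against 3.31%, and at Chronic 24 h 0 of 10 passed against 0%. In the time course MEIS2 fell by 0.35 at 3 Day. Other calls of this list, in the time course and at 1 µM Chronic 1 h, are not reported here. The antisense DLX6-AS1 was tested in every comparison and passed in none.

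The enzymes and carriers that supply, take up and break down GABA and set the chloride gradient were counted from a list of 14, of which 12 were tested. At 1 mM Acute 1 h the glutaminase GLS2, which makes glutamate from glutamine, fell by 1.03. At 1 mM Acute 24 h GLS2 fell by 1.12 and ALDH5A1, the last enzyme of GABA breakdown, by 0.51, while the glutamine carrier SLC38A2 rose by 0.52. At 1 µM the glutamine carriers SLC38A1 and SLC38A2 rose by 0.84 and 0.58 at Acute 1 h, and SLC38A1 by 0.95 at Acute 24 h. None of the 12 passed at either Chronic time of either dose against PBS. In the time course 1 of 12 passed, ALDH5A1 at 4 Day, which rose by 0.34, and with the agonists none did.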

How the data were processed

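RNA of 53 libraries of H9-derived cells was sequenced. The authors mapped the reads and counted them per gene in CLC Genomics Workbench on GRCh38 with Ensembl annotation, and the labels name hg38. The deposited tables hold counts of exon, intron and gene reads for each library. They also hold TPM, which the authors computed from the exon reads. Strand and multi-mapping settings are not given in the sources used here.

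Exon read counts were tested with edgeR 4.0.16 (quasi-likelihood F test, TMM scaling) in R 4.3.3, after a filter at 10 reads a library and 15 in all (filterByExpr). Each experiment was fitted with all its groups, the control sets in 1 fit of 12 libraries, and the dose difference in 1 fit of 30. A gene passed at a Benjamini-Hochberg adjusted p-value under 0.05 over all genes tested, and each SE was derived from the log2(fold change) and its F value. The fits were tested on simulated data. Alternatives were total gene reads, uniquely mapped exon reads, DESeq2 1.42.0 (size factors, and Wald test), other filters, fits of only the groups compared, a replicate block, a fold rule, each library left out in turn, and, chosen after seeing the data, junction reads and intron reads.

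All 7 genes are named in each comparison or given by their range, and of other lists up to 2 called genes with the greatest change in each direction are named per comparison, with defining markers. The genes and lists were chosen with earlier results of these data known. Some genes of these lists are not reported here.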

Additional observations from a re-analysis of the deposited data

Results flagged for a closer look

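The change of GAD1 at Acute 24 h differed between the doses by 1.46 ± 0.31 (SE) on the log2 scale, and edgeR's test of the difference itself gave adjusted p = 0.023. The 1 mM libraries held 22.7, 38.5 and 31.5 TPM against 32.3, 30.2 and 30.4 in their PBS libraries, and the 1 µM libraries 1.84, 2.17 and 3.41 TPM against 8.08, 5.73 and 7.28. A test of the difference in change between doses drew attention to it. Over 11 other settings, the leaving out of libraries apart, the difference lay between 1.42 and 1.83 and passed in 10, the exception being a fit of only the groups compared (adjusted p = 0.23). Dose, experiment and starting level cannot be told apart.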

How the results depend on the processing

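The number of calls among the 7 genes was 3 at 1 mM, 3 at 1 µM, 1 for Chronic 1 h against Acute 1 h, 6 between control sets, 1 for the dose difference, 3 in the added Chronic 24 h comparisons, and 0 in the time course and with the agonists. With total gene reads it was 5 at 1 mM and 2 for the dose difference, where 47.2% and 43.8% of all genes passed at 1 mM Acute 1 h and 24 h and 27.9% in the dose difference at Acute 1 h. In fits of only the groups compared it was 5 at 1 mM (with GAD2 at Acute 24 h lost), 1 at 1 µM and 3 for Chronic 1 h against Acute 1 h. When a fold change of at least 2 was also required, it was 0 at 1 mM and 0 for Chronic 1 h against Acute 1 h. The DESeq2 Wald test gave 2 for the dose difference. Junction reads gave 0 at 1 mM, 1 at 1 µM, 0 for Chronic 1 h against Acute 1 h and 1 with the agonists, and intron reads 1 at 1 µM, 3 for the dose difference, 2 between control sets and 1 in the added comparisons. Leaving out 1 library at a time gave 0 to 6 at 1 mM, 1 to 3 at 1 µM, 0 to 3 for Chronic 1 h against Acute 1 h, 4 to 6 between control sets, 0 to 2 for the dose difference, 2 to 4 in the added comparisons, and 0 in the time course and with the agonists.

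Direction turned in 5 results with intron reads, which were scaled to each library's own intron total. GAD1 at 1 mM became 0.83 at Acute 1 h, 0.98 at Acute 24 h, -1.04 for Chronic 1 h against Acute 1 h and -0.85 for Chronic 24 h against Acute 24 h, and the dose difference of GAD2 at Acute 1 h became -1.56. On the scale of all gene reads, mean GAD1 intron reads were 28.78 in 1 mM PBS, 25.45 at Acute 1 h and 25.28 at Chronic 1 h. They were 32.53 at Acute 24 h and 30.83 at Chronic 24 h. The cause of the turns was not tested.

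Same-numbered libraries did not deviate together (mean correlations from -0.02 to 0.02), so the numbers were not taken as pairs. With the replicate block the counts were 3, 2, 1, 0, 0, 6, 1 and 3, in the order 1 mM, 1 µM, Chronic 1 h against Acute 1 h, time course, agonists, control sets, dose difference and added comparisons. The call lost was GAD1 at 1 µM Chronic 1 h (-1.16, adjusted p = 0.054). Low read numbers limit DLX5, DLX6 and SLC32A1, and in the 1 µM PBS libraries DLX5 had 0 to 33 reads and SLC32A1 4 to 20.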

Other observations

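For each of the 7 genes the most alike genes were ranked by Pearson's r of log2(TPM + 1) over 53 libraries, after each experiment's mean was removed, among 19098 genes. Libraries of an experiment share controls and depth, and no p is given. GAD1 was most like DIRAS2 (r = 0.917), CYBRD1 (0.916) and EIF4A2 (0.914), and GAD2 most like NTM (0.790), ELAVL2 (0.783) and CMTM6 (0.781). DLX2 had DLX1 (0.702) among its nearest genes, and DLX6 was most like CD300LG (0.961).

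These orders changed without Quinpirole replicate 1, a setting chosen after seeing the data (52 libraries, 16605 genes). GAD1 was then most like SEZ6L (0.770), DLX6 most like CDH8 (0.700), and DLX1 had DLX2 (0.606) among its nearest. GAD2 kept NTM (0.655) and ELAVL2 (0.649) among its nearest 3. The 21 pairs of the 7 genes had a median r of -0.153 with that library and 0.171 without it.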
